A study of Macaca mulatta with 12 samples.

Results

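The TRBV5 family is a group of closely related V genes of the T cell receptor beta chain (TRB). A clonotype, defined as a nucleotide sequence of the CDR3 with its V gene, was taken as TRBV5 when the leading V gene in its list of hits was a TRBV5 gene. After infusion, 9 such genes were found among 61 V genes, namely TRBV5-1, TRBV5-3, TRBV5-4, TRBV5-5, TRBV5-6, TRBV5-7, TRBV5-8, TRBV5-9 and TRBV5-10. They held 20502 of 218161 clonotypes (9.40%) and 220645 of 2587795 counts summed over 8 post-infusion libraries. These sums count a clonotype once in each library that holds it, and 19266 TRBV5 clonotypes were distinct. The baseline libraries held 12 more.

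Blood mononuclear cells came from rhesus macaques (Macaca mulatta) infused with apoptotic donor leukocytes (ADLs), white cells of the donor that ethylcarbodiimide fixation drives into apoptosis. Per the study's methods, the recipients were male, nondiabetic and nontransplanted monkeys of Indian origin that shared 1 DRB allele with their donors. All of them received transient immunosuppression with the anti-CD40 antibody 2C10R4, rapamycin, the anti-IL-6 receptor antibody tocilizumab and the soluble TNF receptor etanercept, so no library separates ADLs from these drugs. ADLs were first infused on day -7 relative to the intended transplant on day 0. Amazo, Nebula and Rocket were sampled on day -5 (n = 3) and day -4 (n = 3), which are 2 and 3 days after the first infusion. Nebula was also sampled on day 0, at 7 days, and Amazo on day +3, which its label places 2 days after the second infusion. The 4 baseline libraries carry other animal names, are called baseline libraries 1 to 4 here, and were made from animals whose treatment at sampling the labels do not state.

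Each beta chain is assembled in a developing T cell by joining a V, a D and a J segment, with bases trimmed and added at the joints. The joint encodes the CDR3, the loop that contacts the presented peptide, while the V segment also encodes the loops that mainly contact the MHC molecule. All descendants of a T cell carry the same rearrangement, so a CDR3 sequence marks a clone. A rearrangement that is out of frame or holds a stop codon cannot encode a receptor and is usually carried beside a productive one on the other chromosome.

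Total counts ranged from 42695 (Nebula day -4) to 556954 (Rocket day -5) after infusion and from 63 to 74 at baseline, so each baseline count stood for 1.35% to 1.59% of its library. Libraries also differed in how many TRBV5 clonotypes they had in common. By the Morisita-Horn index, which is 0 for no shared clonotype and 1 for the same clonotypes at the same shares, the TRBV5 repertoires of Amazo day -5, Amazo day +3, Rocket day -5 and Rocket day -4 overlapped at 0.945 to 0.972. The 3 Nebula libraries overlapped with each other at 0.414 to 0.493. The library labelled Amazo day -4 reached 0.0465 with Amazo day -5 and at most 0.000598 with every other post-infusion library. Amazo day -5 and day +3 thus overlapped with each other and with both Rocket libraries, which carry another animal name, and the source of this overlap was not tested. Amazo day -4 shared 20 of its 2302 TRBV5 clonotypes (0.869%) with Amazo day -5, whereas Amazo day -5 shared 275 of its 3573 (7.70%) with Rocket day -4. Among clonotypes of other V genes these shares were similar, at 1.02% and 7.45%, so the pattern was not particular to TRBV5. Shared clonotypes were matched here by the CDR3 sequence alone, and 2 of the 20 and 9 of the 275 had another leading V gene. The index for other V genes was 0.900 to 0.977 among the Rocket libraries, Amazo day -5 and Amazo day +3. Within Nebula it was 0.764 to 0.904, above the TRBV5 values. Libraries are named here as labelled, and the day -5 to day -4 results are also given without the Amazo pair.

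The TRBV5 clones that dominated a library are shown by their CDR3, since each sequence is the tag that follows a clone between libraries. Lower case marks bases assigned to the V segment on the left and to the J segment on the right, and capitals mark the bases between them, which hold the D segment and the added bases. Clones 1 and 2 were the leading TRBV5 clones of Amazo day -4. Clones 3 and 4 led in the Rocket libraries and in Amazo day -5 and day +3. Clones 10 and 11 led in the Nebula libraries.
Clone 1 (TRBV5-1, TRBD1, TRBJ1-4): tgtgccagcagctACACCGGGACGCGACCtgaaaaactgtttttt
Clone 2 (TRBV5-1, TRBD1, TRBJ1-2): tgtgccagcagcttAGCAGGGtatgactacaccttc
Clone 3 (TRBV5-9, TRBD1, TRBJ2-3): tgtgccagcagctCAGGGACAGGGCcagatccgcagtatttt
Clone 4 (TRBV5-6, TRBD1, TRBJ2-3): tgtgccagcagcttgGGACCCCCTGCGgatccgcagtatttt
Clone 10 (TRBV5-6, no D gene, TRBJ2-4): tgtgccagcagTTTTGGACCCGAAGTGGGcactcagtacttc
Clone 11 (TRBV5-1, TRBD2, TRBJ2-7): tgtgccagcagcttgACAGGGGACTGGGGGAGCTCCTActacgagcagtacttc
All 6 begin with the same V bases and are told apart by the bases in capitals and the J end. Clones 3 and 4 share their J gene and differ over the bases between V and J. Further clones of at least 0.1% of a library were numbered 5 to 9, and these 5 were picked after their values were seen.

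TRBV5 took a similar share of counts in 7 of the 8 post-infusion libraries and a larger one in Amazo day -4. At day -5 Amazo held 7.80%, Nebula 7.64% and Rocket 6.56%. At day -4 Amazo held 15.0%, Nebula 8.08% and Rocket 7.39%. Nebula day 0 held 7.74% and Amazo day +3 held 7.50%. The share was higher at day -4 than at day -5 under 3 of 3 animal names, by 7.24 percentage points for Amazo, 0.442 for Nebula and 0.827 for Rocket. The mean was 7.33% ± 0.672 (SD, n = 3) at day -5 and 10.2% ± 4.23 (SD, n = 3) at day -4. The mean difference of 2.84 percentage points gave p = 0.25 in an exact two-sided sign-flip test over the animal names, which is the smallest p that 3 pairs allow. The SD and this test take the 3 animal names as independent. At day -5 Amazo and Rocket overlapped at a Morisita-Horn index of 0.945, so the libraries of that day hold fewer than 3 independent repertoires. Without Amazo the mean difference was 0.634 percentage points. Counts come from RNA, so more cells of a clone and more receptor RNA per cell cannot be told apart.

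The share of distinct clonotypes, in which a clone counts once whatever its size, did not set Amazo day -4 apart. TRBV5 held 8.85% of its clonotypes, against 7.97% to 10.4% over the 8 post-infusion libraries. In Amazo this share was lower at day -4 than at day -5 (8.85% and 10.2%). It was higher at day -4 in Nebula (by 0.976 percentage points) and in Rocket (by 0.297). Over the 3 animals the clonotype share differed by a mean of -0.0192 percentage points (p = 1 by the exact sign-flip test), and by 0.636 without Amazo. Leaving clones 1 and 2 out of every library, a choice made after seeing the data, put the count share of Amazo day -4 at 7.30% and that of Amazo day -5 at 7.70%. The mean difference over the animals was then 0.290 percentage points, with Amazo lower at day -4 and the other 2 higher, and without Amazo it was 0.634. TRBV5 ranked between 4 and 6 by counts among 25 to 27 V families in the other 7 libraries and ranked 1 in Amazo day -4. By clonotypes it ranked 3 or 4 in all 8.

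**Figure D1:**
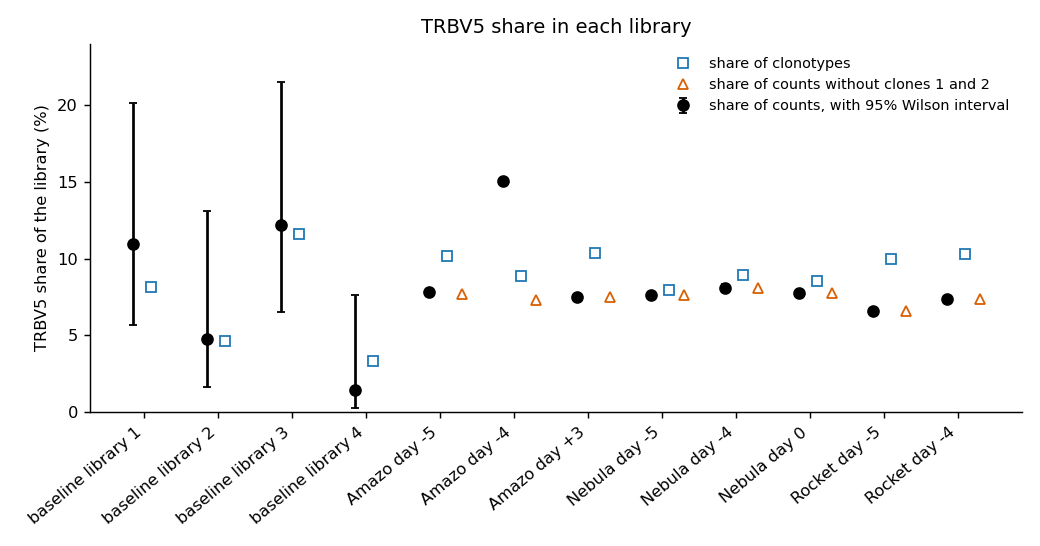
TRBV5 share of each library in percent. Filled circles are shares of counts with 95% Wilson intervals, open squares are shares of clonotypes and open triangles are shares of counts without clones 1 and 2. Amazo day -4 stands at 15.0% of counts and falls to 7.30% without the 2 clones, and the intervals of the baseline libraries span most of the axis.

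At baseline TRBV5 had 8, 3, 9 and 1 counts in libraries 1 to 4. The shares were 10.96% (95% Wilson interval 5.66 to 20.2), 4.76% (1.63 to 13.1), 12.2% (6.53 to 21.5) and 1.43% (0.253 to 7.66), with a mean of 7.33% ± 5.10 (SD, n = 4). The baseline shares lay on both sides of the day -5 shares. The difference from baseline was 0.00421 percentage points at day -5 (exact permutation p = 1) and 2.84 percentage points at day -4 (p = 0.514). Each test set 4 baseline libraries against 3 later ones. The day -4 difference was 0.405 percentage points without Amazo day -4 and reached 4.45 with a baseline library left out. The tests treat libraries as independent, although Amazo day -5 and Rocket day -5 overlapped. Of the 12 baseline clonotypes, 11 were TRBV5-1 and 1 was TRBV5-6, and none was found in a post-infusion library. At 63 to 74 counts per library, the absence of the other 7 genes at baseline allows each a share of up to 4.05% to 4.76% of a library (3 counts).

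TRBV5-1 was the main gene of the family in every post-infusion library, with 916 to 2073 clonotypes and 51.1% to 68.6% of the family's clonotypes. Its share of the library's counts was 13.1% in Amazo day -4 and 2.45% to 5.08% in the other 7. TRBV5-9 had 180 to 550 clonotypes in 7 libraries and 44 in Amazo day -4. TRBV5-6 had 195 to 442 and outnumbered TRBV5-9 in the 3 Nebula libraries and in Amazo day -4. TRBV5-10 had 82 to 218, fewer than TRBV5-6 and TRBV5-9 in 7 libraries, while in Amazo day -4 its 208 clonotypes came next after TRBV5-1. TRBV5-8 (26 to 148), TRBV5-3 (25 to 81), TRBV5-4 (19 to 89) and TRBV5-5 (18 to 64) were small. TRBV5-7 ranged from none to 110.

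The makeup of the family was alike among the libraries whose clonotypes overlapped and differed between those groups. TRBV5-9 made up 14.9% to 18.3% of the family's clonotypes in the 2 Rocket libraries and in Amazo day -5 and day +3. In Nebula it made up 267 of 2418 at day -5, 180 of 1622 at day -4 and 312 of 2599 at day 0, and in Amazo day -4 it made up 44 of 2302 (1.91%). TRBV5-7 had 40 clonotypes in Rocket day -5, 84 in Rocket day -4, 110 in Amazo day -5, 83 in Amazo day +3 and 61 in Amazo day -4. In Nebula it had 7 clonotypes at day -5, 4 at day -4 and 0 of 258096 counts at day 0, which allows a share of up to 0.00116%. TRBV5-4 showed a similar split, with 53 to 89 clonotypes in the Rocket libraries and Amazo day -5 and day +3, 19 to 33 in Nebula and 22 in Amazo day -4. These groups are the ones formed by clonotype overlap, so differences in gene usage and in the source of the libraries cannot be told apart.

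**Figure D2:**
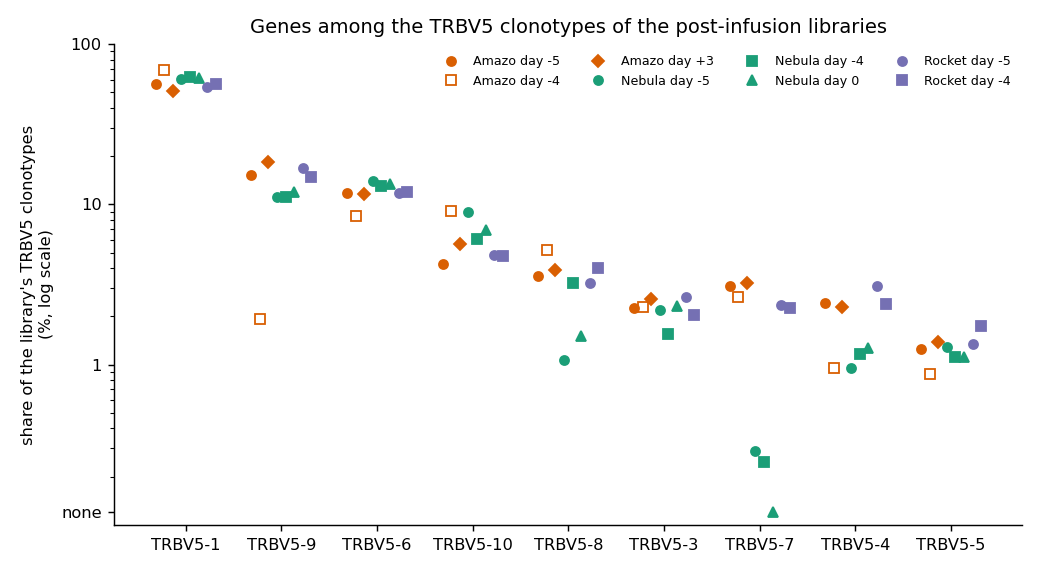
Share of each TRBV5 gene among the TRBV5 clonotypes of a library, in percent on a log scale, with 1 point per post-infusion library and the bottom row for no clonotype. Amazo day -4 (open squares) stands low for TRBV5-9 at 1.91%, and the 3 Nebula libraries stand low for TRBV5-7, with none at day 0.

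Usage of V genes was compared between day -5 and day -4 by edgeR's quasi-likelihood test with the animal as a block. Of 57 V genes tested, 0% were called at an adjusted p under 0.05, and none passed at an unadjusted p under 0.05. All 9 TRBV5 genes were among those tested. TRBV5-8 had the smallest p of the family, with a log2 fold change of 1.05 ± 0.43 (SE, adjusted p = 0.627). It held 0.157%, 0.0526% and 0.131% of counts at day -5 in Amazo, Nebula and Rocket and 0.366%, 0.173% and 0.183% at day -4, so it was higher under each animal name. Most TRBV5-8 clonotypes list another V gene as well, and with V hits of 1 gene only its log2 fold change was 0.17 ± 0.92. TRBV5-1 had a log2 fold change of 0.69 ± 0.44 and TRBV5-9 of -1.16 ± 0.95 (SE), with adjusted p of 0.627 and 0.655. Without Amazo these values were 0.13 for TRBV5-1 and -0.031 for TRBV5-9. DESeq2 called none of the 57 genes either, with 5 genes at an unadjusted p under 0.05, 2 of them TRBV5. Without Amazo, 4 of 56 V genes and no TRBV5 gene were called. Without Nebula, TRBV5-9 passed as lower at day -4 (log2 fold change -1.98, adjusted p = 0.0215). That fit rests on the 2 remaining pairs. In Rocket alone the TRBV5-9 share was 1.49% at day -5 and 1.53% at day -4, so the lower value came from the Amazo pair (1.65% and 0.113%).

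Many TRBV5 clonotypes listed more than 1 V gene among their hits, and how many did differed between genes. The listed hits seldom scored the same, with equal scores in 2 of 4092 such clonotypes, and the lowest hit scored a median of 7.24% and at most 13.0% below the leading one. TRBV5-4 shared none of its 384 clonotypes with another gene, and TRBV5-1 shared 2 of 11962. TRBV5-3 shared 3 of 459, TRBV5-5 shared 3 of 266 and TRBV5-10 shared 55 of 1259. TRBV5-7 shared 70 of 389, TRBV5-6 shared 46.7%, TRBV5-8 shared 56.7% and TRBV5-9 shared 91.5%. The partner was nearly always another TRBV5 gene. For TRBV5-9 it was TRBV5-8 in 75.2%, TRBV5-7 in 72.1% and TRBV5-6 in 65.7% of shared clonotypes, which can list several partners. For TRBV5-6 it was TRBV5-9 in 99.5%. Over the 8 libraries, 3 TRBV5 clonotypes listed a gene outside the family, which was TRBV9, TRBV3-4 or TRBV7-9. No clonotype of another family listed a TRBV5 gene second. The counts of the family as a whole therefore do not depend on these shared hits, while those of TRBV5-6, TRBV5-7, TRBV5-8 and TRBV5-9 do.

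The leading gene of a shared CDR3 was not always the same between libraries. Among clonotypes of TRBV5-9 present in 2 overlapping libraries, 3.23% to 15.9% had another leading gene in the other library, over the 7 pairs of libraries with at least 20 such clonotypes. With the same minimum, the range was 0% to 5.45% for TRBV5-6 and 0% to 1.90% for TRBV5-1. The share of TRBV5 clonotypes with such shared hits was 5.65% in Amazo day -4 and 15.96% to 25.1% in the other 7 libraries.

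The opening bases of the CDR3, which come from the V segment, differed between these genes. In TRBV5-1, 85.0% of clonotypes began with TGTGCCAGCAGC, and the same 12 bases opened 84.8% of TRBV5-10, 85.9% of TRBV5-6, 84.1% of TRBV5-4, 81.0% of TRBV5-7 and 68.6% of TRBV5-3. TRBV5-9 was split between TGCGCCAGCAGC (41.7%) and TGTGCCAGCAGC (41.1%). TRBV5-8 was split between TGCACCAGCAGC (43.3%) and TGCGCCAGCAGC (28.3%).

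The openings of TRBV5-8 and TRBV5-9 varied by library. Among TRBV5-8 clonotypes, the opening TGCACC was found in 117 of 120 (97.5%) in Amazo day -4. In Nebula the opening TGCGCC was found in 24 of 26 at day -5, 51 of 52 at day -4 and 36 of 39 at day 0. The Rocket libraries and Amazo day -5 and day +3 held both, with TGCACC in 48.0% to 67.3% and TGCGCC in 27.3% to 51.4%. Among TRBV5-9 clonotypes, TGCGCC and TGTGCC were about equal in those 4 libraries and in Nebula, with TGCGCC in 43.3% to 52.6%. In Amazo day -4 no TRBV5-9 clonotype began with TGCGCC, and 42 of 44 began with TGTGCC. Every TGCGCC clonotype given to TRBV5-8 in the Rocket libraries and in Amazo day -5 and day +3 had shared hits, while in Nebula 54.2% to 96.1% of them had. Alleles were not resolved here, so alleles and genes cannot be told apart for these openings.

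TRBV5-5 was mostly out of frame, as judged by whether the length of the assigned CDR3 was a multiple of 3. Of 266 TRBV5-5 clonotypes, 254 (95.5%) were out of frame, against 4.56% of TRBV5-1 and 6.56% of all other V genes outside the family. Within TRBV5-5, 89.5% of TRBV5-5 clonotypes had a CDR3 length 1 base above a multiple of 3 and 6.02% a length 2 bases above it. In the other V genes these shares were 3.13% and 3.42%. Of its clonotypes, 218 (82.0%) opened with TGCCAGCAGC, which is the main opening of TRBV5-1 with the leading 2 bases left off. Whether the CDR3 assigned to this gene starts 2 bases late was not tested. Its frame is therefore not read as a lack of productive receptors. By the assigned length, TRBV5-5 was out of frame in 90.0% to 100% of its clonotypes in each of the 8 libraries. TRBV5-3 was out of frame in 135 of 459 (29.4%), nearly evenly between the 2 frames (76 and 59), and its range over libraries was 9.43% (Amazo day -4) to 40.9% (Amazo day +3). TRBV5-8 was out of frame in 75 of 667 (11.2%), from 6.76% (Rocket day -4) to 17% (Amazo day +3). In Amazo day -4 the TRBV5-3 value was below those of TRBV5-8 (16.7%) and TRBV5-9 (15.9%). With the 8 libraries summed, the genes other than TRBV5-3, TRBV5-5 and TRBV5-8 lay between 3.89% and 6.39%. Single libraries ranged more widely, as for TRBV5-7 with 0% to 28.6%, the latter being 2 of 7 clonotypes in Nebula day -5. Leaving out TRBV5-5, the family was out of frame in 4.18% to 7.27% of clonotypes, and other V genes in 4.57% to 9.22%.

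The size of the dominant clones differed between libraries. The largest TRBV5 clone made up 44.2% of the family's counts in Amazo day -4. In the Rocket libraries and in Amazo day -5 and day +3 it made up 7.03% to 9.33%, and in Nebula 1.08% to 1.51%. The 10 largest clones made up 58.0% of the family in Amazo day -4, 26.4% to 33.8% in the 4 libraries with the shared repertoire and 4.95% to 6.67% in Nebula. Clonotypes seen once made up 9.67% to 16.5% of TRBV5 clonotypes in 7 libraries and 42.4% in the shallow Nebula day -4, where they were 42.7% of clonotypes of other V genes.

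Clone 1, which joins TRBV5-1 to TRBJ1-4, was the largest clone of any V gene in Amazo day -4. It had 26061 counts (6.64%, 95% Wilson interval 6.56 to 6.72) there and 292 counts (0.0839%, 0.0748 to 0.0941) in Amazo day -5. It had 4 counts in Rocket day -5, 1 each in Rocket day -4, Nebula day 0 and Amazo day +3, and none in Nebula day -5 and day -4. The clone was thus high in a single library and at or near the floor of 3 counts in 6. Clone 2, which joins TRBV5-1 to TRBJ1-2, had 6700 counts (1.71%) in Amazo day -4, 90 (0.0258%) in Amazo day -5 and 9 (0.00297%) in Amazo day +3, and was not seen in the other 5. Clone 8, an out-of-frame TRBV5-1 rearrangement, had 548 counts (0.140%) in Amazo day -4, 7 in Amazo day -5 and 6 in Amazo day +3. The ratio of Amazo day -4 to Amazo day -5 was 79.2 for clone 1, 66.0 for clone 2 and 69.4 for clone 8.

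Clones 3 and 4 were held at similar shares by the Rocket libraries and by Amazo day -5 and day +3. Clone 3, a TRBV5-9 clone that also lists TRBV5-7 and TRBV5-8, took 0.612% in Rocket day -5, 0.505% in Rocket day -4, 0.553% in Amazo day -5 and 0.592% in Amazo day +3. It ranked 22 among all clones in each of these 4 libraries. Clone 4, a TRBV5-6 clone, took 0.534%, 0.519%, 0.500% and 0.456% in the same order. Neither was seen in Amazo day -4, where 3 counts are 0.000764%. Clone 3 had 1 count in Nebula day -5 and clone 4 had 3 there and 1 in Nebula day 0.

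The 5 clones picked after their values were seen filled in the same picture. Clone 5 (TRBV5-4 with TRBJ2-4, 0.319% to 0.440%), clone 6 (TRBV5-3 with TRBJ1-1, out of frame, 0.180% to 0.258%) and clone 7 (TRBV5-9 with TRBJ2-3, 0.158% to 0.205%) were likewise seen in those 4 libraries and not in Amazo day -4. Clone 5 alone made up 69.3% to 77.4% of TRBV5-4 counts there, and clone 6 made up 54.1% to 70.6% of TRBV5-3 counts. Clone 9 (TRBV5-6 with TRBJ2-6) held 0.127% in Rocket day -5, 0.131% in Rocket day -4 and 0.122% in Amazo day -5 but 0.0389% in Amazo day +3. In Nebula the largest TRBV5 clones stayed small. Clone 10 held 0.0821% at day -5, 0.0867% at day -4 and 0.117% at day 0. Clone 11 held 0.0727%, 0.0913% and 0.0337% on the same days. Neither was seen outside Nebula.

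**Figure D3:**
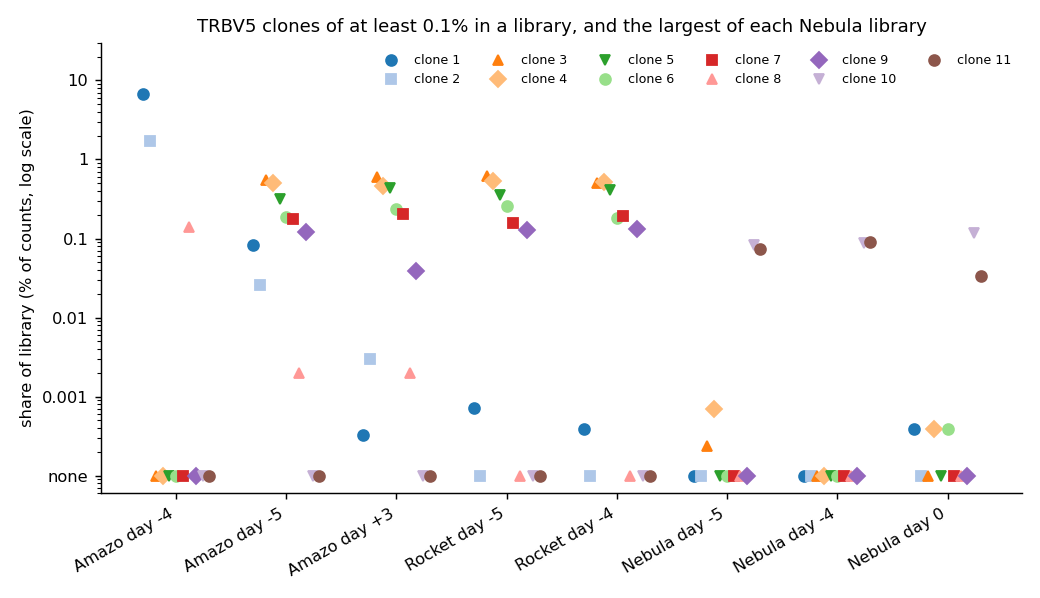
Share of each library's counts held by clones 1 to 11, on a log scale with the bottom row for no count. Clones 1, 2 and 8 are high in Amazo day -4, clones 3 to 7 and 9 in the 4 libraries with a shared repertoire, and clones 10 and 11 in Nebula.

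Clones were compared between 2 libraries of the same label by Fisher's exact test over all clonotypes of at least 0.1% in either, and called at an adjusted p under 0.05 with at least a 2-fold difference. A clone that reaches 0.1% in 1 library of a pair alone enters through the library where it is high, so a call on it is a description. In the Amazo day -5 and day -4 pair this held for all 9 TRBV5 clones, and nothing is read from their calls. Of the 81 clonotypes compared there over all V genes, 58% were lower and 42% higher at day -4. Clones 1, 2 and 8 were the TRBV5 clones that were higher, and clones 3 to 7 and 9 had no count at day -4, which makes them at least 159-fold to 723-fold lower against a floor of 3 counts. From Rocket day -5 to day -4, 0 of 6 TRBV5 clones were called, against 1.92% lower and 0% higher over all 52 tested, and their ratios stayed between 1.03 and 1.43 in either direction. From Nebula day -5 to day -4, no TRBV5 clone reached 0.1%, and 0% of 25 clonotypes were lower and 8% higher. From Nebula day -5 to day 0, clone 10 was the single TRBV5 clone tested and was not called (ratio 1.42), against 8.7% lower and 0% higher of 23. From Amazo day -5 to day +3, 1 of 6 TRBV5 clones was called, against 10.2% lower and 0% higher of 49. That clone was clone 9, which had 424 counts in the first library and 118 in the second, a 3.13-fold lower share, and which reached 0.1% in the first alone. These tests compare counts of 2 libraries and not the days, since each day of an animal is 1 library.

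Combinations of TRBV5 genes with J genes that the study lists were followed as well. That list was chosen by the study on these samples and is no independent evidence of a direction. TRBV5-1 with TRBJ1-4 held 7.29% of counts in Amazo day -4 and 0.207% to 0.590% in the other 7 libraries. Clone 1 made up 91.1% of it in Amazo day -4, and the number of clonotypes with this combination was 207 there and 211 in Amazo day -5. TRBV5-1 with TRBD1 and TRBJ1-2 held 1.93% in Amazo day -4 and 0.150% to 0.218% in the other 7 post-infusion libraries, and clone 2 made up 88.4% of it. TRBV5-6 with TRBD1 and TRBJ2-3 held 0.493% to 0.563% in the Rocket libraries and in Amazo day -5 and day +3, of which clone 4 was 92.4% to 96.4%. In Amazo day -4 and Nebula it held 0.0164% to 0.0364%. At baseline, TRBV5-1 with TRBJ1-4 had 4 counts of 73 in library 1 and 1 of 74 in library 3, each from a single clonotype that was not clone 1.

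J pairing was counted over distinct clonotypes so that large clones did not set it. TRBJ2-7 was used less by TRBV5 than by other V genes in all 8 post-infusion libraries (9.05% to 9.95% against 11.2% to 11.95% of clonotypes). TRBJ2-4 was also lower in 8 of 8 (7.00% to 8.30% against 8.52% to 10.4%), as was TRBJ2-6 (2.65% to 3.70% against 3.36% to 4.43%). TRBJ2-1 was higher in 8 of 8, by 0.200 to 3.43 percentage points, and TRBJ1-4 in 7 of 8. The 8 libraries hold 3 groups with little overlap, so they are fewer than 8 independent repertoires. The other V genes are pooled in these comparisons. J usage was not compared with single families, so whether other families depart as far from the pool is not known.

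The 3 day -4 libraries share few clonotypes and were used for a test, edgeR's quasi-likelihood test of TRBV5 against other V genes with the library as a block. Of 13 J genes, 5 (38.5%) were called. TRBJ2-7 was lower at log2 fold change -0.25 ± 0.02 (SE, adjusted p = 0.000108), and TRBJ2-4 was lower at -0.30 ± 0.05 (adjusted p = 0.00167). TRBJ2-1 (0.27 ± 0.03, adjusted p = 0.000201), TRBJ1-4 (0.24 ± 0.05, adjusted p = 0.00393) and TRBJ2-2 (0.26 ± 0.08, adjusted p = 0.0289) were higher. In TRBV5 and in other V genes of Amazo, Nebula and Rocket at day -4, the TRBJ2-7 shares were 9.95% and 11.95%, 9.43% and 11.9%, and 9.05% and 11.5%. With productive clonotypes alone no J gene was called, with log2 fold changes of similar size (TRBJ2-7 -0.28 ± 0.08, TRBJ2-4 -0.33 ± 0.08, TRBJ2-1 0.22 ± 0.10). Without Amazo 1 was called (TRBJ2-7, log2 fold change -0.39, adjusted p = 0.0214). TRBJ1-4 fell to 0.07 ± 0.12 there, but it was still called without Nebula, without Rocket and in the day -5 libraries. TRBJ2-2 stayed higher with each library left out but was called in none of these fits (adjusted p 0.0666 to 0.639). In the day -5 libraries its log2 fold change was 0.04 ± 0.08. Weighted by counts, none was called, and TRBJ2-1 and TRBJ2-4 changed sign.

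Genes of the family differed in these pairings, a split made after the values were seen. TRBV5-1 used TRBJ1-4 more than other families did in 8 of 8 libraries (9.61% to 13.1% of its clonotypes), while the other TRBV5 genes together used it less in 7 of 8 (6.33% to 9.80%). For TRBJ2-1 the order was turned. The other TRBV5 genes were above other families in 8 of 8 (10.4% to 16.3%), and TRBV5-1 in 4 of 8 (10.6% to 12.1%). TRBJ2-7 was below other families in 8 of 8 for TRBV5-1 and in 7 of 8 for the rest of the family. TRBV5-6 had TRBJ2-1 as its most frequent J gene in all 8 libraries.

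**Figure D4:**
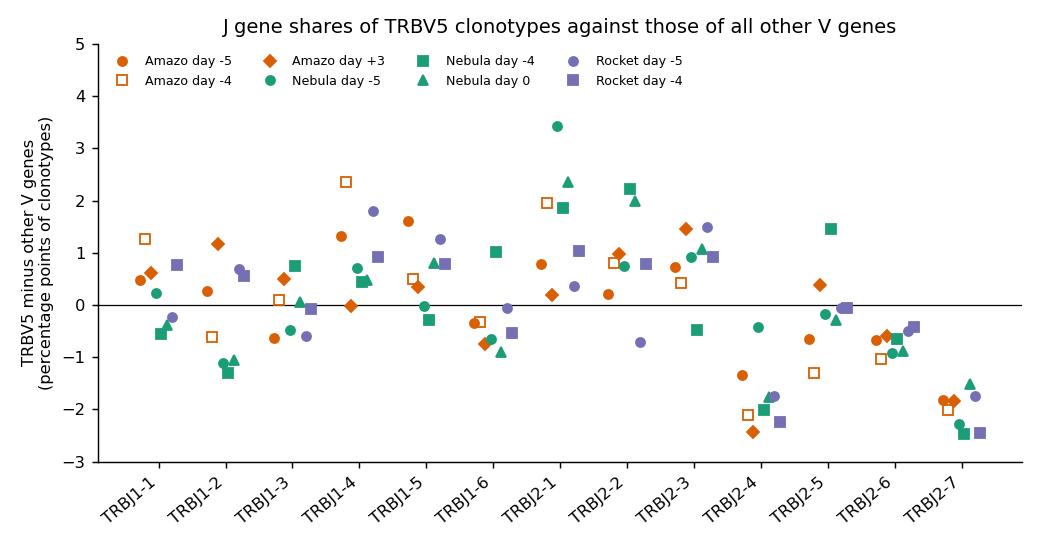
Share of each J gene among TRBV5 clonotypes minus its share among clonotypes of all other V genes, in percentage points, with 1 point per post-infusion library. All 8 points lie below 0 for TRBJ2-4, TRBJ2-6 and TRBJ2-7 and above 0 for TRBJ2-1.

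TRBV5 clonotypes were assigned TRBD1 more often than those of other V genes in 8 of 8 libraries (52.8% to 56.9% against 49.7% to 52.0%). TRBD2 was assigned less often in 8 of 8 (19.9% to 24.3% against 22.1% to 25.9%), and so was no D gene (21.4% to 24.03% against 23.6% to 26.9%). These differences are from the pooled other V genes and not from single families. They are given as descriptions and were not tested.

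CDR3 length was close to that of other V genes in its mean and narrower in its spread. The mean over productive TRBV5 clonotypes was 14.5 amino acids in Amazo day -4 (14.46 ± 1.63, SD over 2095 clonotypes), 14.50 ± 1.41 in Nebula day -4 (1530) and 14.52 ± 1.54 in Rocket day -4 (3424). Other V genes had means of 14.44, 14.38 and 14.46 in these libraries. TRBV5 was longer by 0.0173, 0.122 and 0.0550 amino acids, a mean of 0.0648 ± 0.0532 (SD, n = 3), with an exact two-sided sign-flip p = 0.25, the smallest that 3 libraries allow. At day -5 the mean difference was 0.00524 amino acids, higher in 2 of 3. Over the 8 libraries TRBV5 was longer in 7.

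The SD of CDR3 length was lower in TRBV5 than in the pooled other V genes in 8 of 8 libraries (1.41 to 1.63 against 1.74 to 1.82 amino acids). Pooling many genes can widen the spread, so TRBV5 was also set against single families with at least 100 productive clonotypes. Among 21 to 23 such families it ranked between 1 and 4 from the narrowest. A length of 14 amino acids was the most frequent in TRBV5 in all 8 libraries, with 27.0% to 30.3% of productive clonotypes. In the pooled other V genes the most frequent length was 14 or 15 amino acids, depending on the library, with 23.2% to 24.3%. The V end of TRBV5 was trimmed by 1.79 to 1.96 bases on average, against 2.69 to 2.98 in the other V genes, and TRBV5 ranked between 2 and 4 from the least trimmed family. Fewer bases lay between V and J in 8 of 8 libraries (12.7 to 13.1 against 13.0 to 13.4).

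Within the family, TRBV5-1 had a mean of 14.5 to 14.7 amino acids over the 8 libraries and was longer than TRBV5-6 (14.1 to 14.4) in 8 of 8, by 0.166 to 0.454. Against TRBV5-10 it was longer in 7 of 8 and against TRBV5-9 in 5 of 8. These comparisons were not tested.

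**Figure D5:**
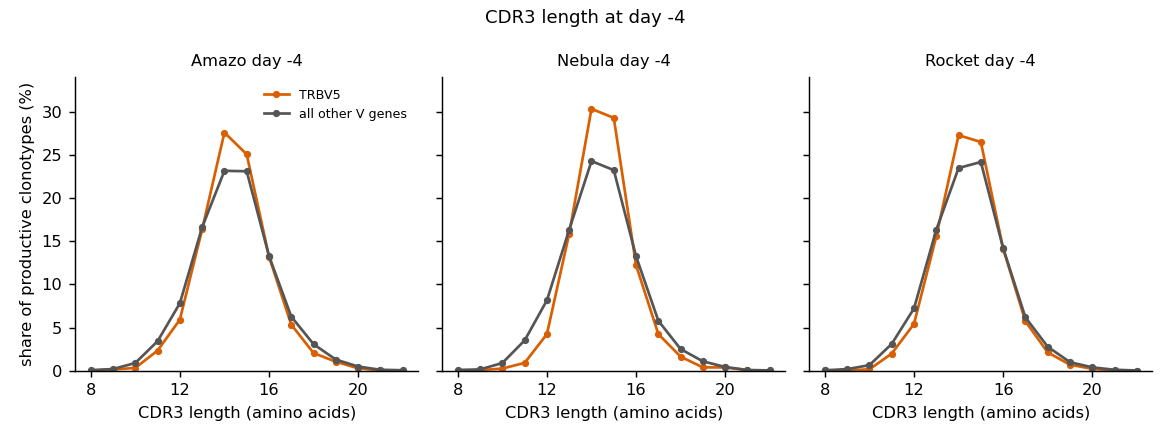
Distribution of CDR3 length in amino acids over productive clonotypes of TRBV5 and of all other V genes in the 3 day -4 libraries, in percent of clonotypes. TRBV5 has the higher peak at 14 amino acids and lower shares at 11 and 12.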

How the data were processed

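TRB libraries of blood mononuclear cells were made from polyadenylated RNA by template switching, amplified with constant-region primers and read on a MiSeq. The authors trimmed reads with Trimmomatic and called clones with MiXCR against rhesus TRB segments. Versions and segment coordinates were not given in the sources used here. Each deposited file lists the clones of 1 library with a count, which is a whole number that was not normalized, and a deposited fraction of that count. The authors describe collapsing reads by molecular barcode and keeping clones of at least 0.5%, but the deposited post-infusion tables hold smaller clones and no barcodes, so intervals, floors (3 counts) and Fisher's tests cover counting error only. p-values over libraries refer to these libraries as labelled, some of which overlap in their clonotypes.

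V, D and J genes were the leading hits. Gene positions were not used here. V usage (at least 10 counts in 3 libraries, TMM, animal as replicate block) and J pairing were fitted with edgeR 4.0.16 in R 4.3.3, with Benjamini-Hochberg adjustment over all genes tested, and SE were taken from the F statistic. DESeq2 1.42.0 was an alternative. Scripts were tested on simulated data. The simulated V gene counts had less spread than the real ones, so that test does not give the size of difference the V usage fit could find. Same-named libraries correlated in their V gene deviations at -0.107 (Amazo), 0.857 (Nebula) and 0.932 (Rocket), and the pairing follows the animal names in the labels. Clones named were the largest TRBV5 clone of each post-infusion library and all of at least 0.5%. The members and lists were chosen with earlier results of these data known.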

Additional observations from a re-analysis of the deposited data

How the results depend on the processing

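Share of counts, day -5 to day -4: the mean difference was -0.0192 percentage points with each clonotype counted once, and 0.634 to 4.03 with each animal left out. Counting each clonotype once without Amazo gave 0.636, and leaving out clones 1 and 2 without Amazo gave 0.634, both added after seeing the data. Without the replicate block it was 2.84 percentage points (exact permutation p = 0.3), and TRBV5 genes called in V gene usage stayed at 0, so the block changed no call. Share of counts, baseline to day -5: the difference was -3.72 with V hits of 1 gene only, -0.485 with productive clonotypes only, -1.08 with at least 2 counts, and -1.96 to 1.62 with each library left out. Baseline to day -4, it was -0.269 with V hits of 1 gene only and 0.405 to 4.45 with each library left out. TRBV5 genes called in V gene usage numbered 0 under every setting, apart from the leave-one-out fits, which gave 0 to 1. Signs of log2 fold changes turned for TRBV5-10 (-0.11), TRBV5-5 (0.16, and -0.47 to 0.16 over the animals left out) and TRBV5-6 (0.0016, and -0.71 to 0.0016) without Amazo, for TRBV5-7 (-0.13) with each clonotype counted once, and for TRBV5-9 (0.18) with V hits of 1 gene only. J genes called numbered 0 weighted by counts, where TRBJ2-1 was -0.25 and TRBJ2-4 0.20, 3 in the day -5 libraries, 1 by DESeq2 (TRBJ2-4), 3 with V hits of 1 gene only, 0 with productive clonotypes only and 1 to 5 with each library left out. TRBV5 clones called at a 0.5% threshold numbered 4 of 4 tested for Amazo day -5 to day -4 and 0 of 2 for day +3, since fewer clones reach it. Those 4 each reached 0.5% in 1 library of the pair alone, so nothing is read from their calls. With no minimum fold the TRBV5 clones called numbered 4 for Rocket, 1 for Nebula day -5 to day 0 and 6 for Amazo day -5 to day +3, and at least 5-fold gave 0 for the last. The share called over all V genes was not computed under these settings, so the counts are descriptions. For the other changes the cause was not tested. The CDR3 length difference stayed positive under the alternatives tried. Taking a clonotype as the CDR3 alone was added after seeing the data and changed no count of TRBV5 clones called. At 63 to 74 counts, the baseline libraries limit every comparison with them.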
